A study of Mus musculus with 10 samples.

Results

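Kruppel-like factors were followed through the genes Klf2, Klf3, Klf4, Klf6, Klf7, Klf10, Klf11, Klf12 and Klf13, taken by symbol from the deposited count table. These were 9 of the 40789 genes in that table, and 8 further genes named Klf with a number were read beside them. Microglia, which are macrophages that live in the brain, were sorted from the cortex of 10 mice for RNA sequencing. Of these mice 5 had received LPS, an endotoxin of bacteria that is sensed by the receptor TLR4, at 4 mg/kg into the peritoneum, and 5 had received saline. All 10 were female CX3CR1+/egfp mice on a C57BL6/J background, 2 to 3 months old, and were killed 24 h after the injection. Each library was made from 1 mouse. In both groups 1 copy of Cx3cr1 carries a green fluorescent reporter, and cells were sorted for high reporter fluorescence, so both groups have a single intact copy of this gene. Cx3cr1 RNA itself was 1476 ± 667 CPM in LPS mice and 4134 ± 736 CPM in saline mice (SD, n = 5 each), where CPM is the count scaled to a common library size.

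Kruppel-like factors are transcription factors with zinc fingers at their C-terminal end that bind GC boxes and CACCC elements, sequences they share with the related SP factors. Their N-terminal ends differ and sort them by partner: Klf2, Klf4, Klf6 and Klf7 mainly activate genes through acetyltransferases, Klf3 and Klf12 recruit the co-repressor CtBP, and Klf10, Klf11 and Klf13 recruit Sin3A. In macrophages Klf2 and Klf4 are known for restraining or directing inflammatory activation, and Klf6 for supporting it. Transcription of Klf2 and Klf4 is driven in endothelium by the kinase ERK5 through MEF2 factors, and Klf10 and Klf11 were first described as genes induced by TGF-beta.

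The regions upstream of 4 of these genes show which of these elements their promoters hold. Klf2 is shown for its MEF2 site, Klf4 as its closest relative among the 9, and Klf6 and Klf13 as the members with the most RNA. Each sequence is the 250 bases before the start site in RefSeq on GRCm38.p6, read 5′ to 3′ on the strand of the gene. Capitals mark the CACCC element, the GC box GGGCGG and the MEF2 site on either strand. Klf2 was read from chr8:72318812-72319061 (plus strand), Klf4 from chr4:55532476-55532725 (minus strand), Klf6 from chr13:5861239-5861488 (plus strand) and Klf13 from chr7:63938916-63939165 (minus strand).
Klf2: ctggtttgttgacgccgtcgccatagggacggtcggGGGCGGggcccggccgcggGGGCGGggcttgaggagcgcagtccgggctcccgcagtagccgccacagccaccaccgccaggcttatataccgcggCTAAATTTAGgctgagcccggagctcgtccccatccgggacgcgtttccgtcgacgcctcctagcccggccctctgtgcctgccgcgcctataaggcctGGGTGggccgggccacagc
Klf4: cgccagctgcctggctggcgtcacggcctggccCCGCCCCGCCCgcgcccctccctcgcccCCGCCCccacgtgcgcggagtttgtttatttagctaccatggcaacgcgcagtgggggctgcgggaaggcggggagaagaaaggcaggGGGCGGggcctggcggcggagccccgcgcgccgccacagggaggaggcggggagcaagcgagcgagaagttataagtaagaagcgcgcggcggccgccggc
Klf6: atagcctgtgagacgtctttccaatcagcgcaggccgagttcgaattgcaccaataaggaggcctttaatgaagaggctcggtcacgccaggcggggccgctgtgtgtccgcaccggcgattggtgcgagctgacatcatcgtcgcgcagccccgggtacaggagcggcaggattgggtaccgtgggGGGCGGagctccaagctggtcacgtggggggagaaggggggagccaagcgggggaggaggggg
Klf13: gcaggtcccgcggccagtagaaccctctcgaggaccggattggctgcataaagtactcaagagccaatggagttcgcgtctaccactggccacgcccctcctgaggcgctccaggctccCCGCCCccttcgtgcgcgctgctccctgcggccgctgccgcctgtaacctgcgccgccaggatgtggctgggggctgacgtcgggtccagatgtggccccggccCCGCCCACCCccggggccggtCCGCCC

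Promoters of 8 of the 9 members were matched in RefSeq (all but Klf10), and motifs were searched on both strands in windows of 300 bases, from 250 before to 50 after the start site. Klf2 held the MEF2 site CTAAATTTAG at position -118, counted from -1 for the base before the start site. No other matched member had a MEF2 site, a motif found in 3.19% of 32851 promoters. GC content was 45.7% in the window of Klf12 and 58.3% (Klf7) to 77.7% (Klf11) in the others. Its median over all promoters was 52.7% (quartiles 45.7% and 61.7%), and motif shares were not adjusted for it. The GC box stood in 7 of the 8 windows and in 35.7% of all promoters. It occurred 6 times in Klf3, 4 times in Klf4 and Klf11 and 3 times in Klf13, and was not found in Klf12. CACCC stood in 5 of the 8 windows, namely Klf2, Klf3, Klf7, Klf12 and Klf13, and in 57.5% of all promoters. Some matches share a letter or more, in Klf3, Klf4, Klf11 and Klf13. CCAAT occurred 4 times in Klf6 and 2 times each in Klf11 and Klf13, and stood in 37.4% of all promoters. No NF-kB site, CArG box or TGACGTCA was found in the 8 windows (8.46%, 1.63% and 1.79% of all promoters), and TATAAA was found only in Klf12 (13.6% of all promoters). The windows of Klf12 and Klf7 belong to start sites 136095 and 956 bases inside the RefSeq gene span, so they do not describe the outermost start.

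Library totals were 12928007 to 15332121 counts in LPS mice and 11577295 to 15274421 in saline mice, and all 9 members passed the filter on low counts. Some mice stood apart for these genes. LPS replicate 4 was the highest LPS mouse for 7 of 9 members (28.6% of 13793 tested genes had it highest), LPS replicate 1 was far the highest for Klf2, and saline replicate 1 was the highest saline mouse for 5 members (18.5% of tested genes). Results that rest on these mice are given with and without them. Microglial markers were present in every library, with summed levels of 10 genes of 20945 to 40204 CPM in LPS mice and 62334 to 72521 CPM in saline mice. Of these 10 genes 6 fell and none rose, where 22.5% of all tested genes fell and 22.4% rose. P2ry12, a purine receptor of resting microglia, averaged 2419 ± 1024.5 CPM in LPS mice and 21585 ± 3362 CPM in saline mice (edgeR adjusted p = 8.12e-07).

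Per unit of length, Klf6 and Klf13 made up most of the Kruppel-like factor RNA in microglia. RPKM, the count scaled by library size and gene length, is the deposited measure that allows levels of different genes to be compared. Klf6 averaged 83.8 ± 22.0 RPKM in LPS mice and 50.02 ± 8.61 RPKM in saline mice (SD, n = 5 each). Klf13 averaged 65.1 ± 32.6 RPKM in LPS mice and 32.5 ± 0.661 RPKM in saline mice. The next, Klf3, was level with Klf13 in saline mice, at 26.9 ± 4.91 RPKM in LPS mice and 31.5 ± 1.48 RPKM in saline mice. Klf7 and Klf10 had overlapping levels in LPS mice, at 15.8 ± 2.05 and 15.7 ± 1.48 RPKM, while in saline mice Klf7 (13.5 ± 2.68 RPKM) lay above Klf10 (6.72 ± 2.06 RPKM) without overlap. Klf4 followed with 7.28 ± 6.95 RPKM in LPS mice and 4.98 ± 4.94 RPKM in saline mice, a spread that reached the range of Klf10. The lowest levels, averaged over all 10 mice, were those of Klf2 (2.50 RPKM), Klf12 (1.52 RPKM) and Klf11 (0.735 RPKM). The 3 highest genes together held 74.9% to 83.3% of the summed RPKM in LPS mice and 73.0% to 83.1% in saline mice.

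**Figure D1:**
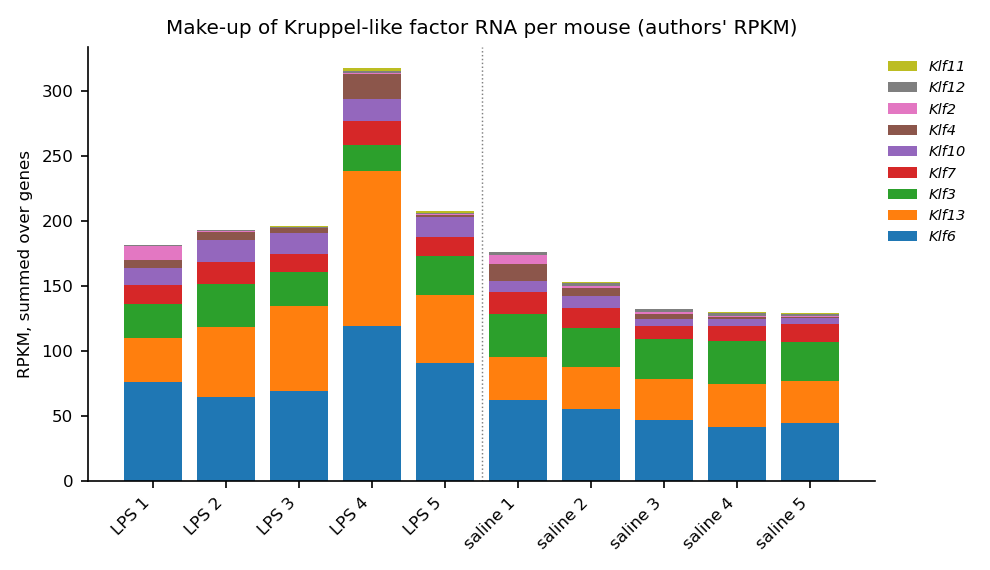
Deposited RPKM of the 9 genes stacked for each mouse, with LPS mice left of the dotted line and saline mice right of it; the vertical axis is RPKM and each colour is 1 gene. The LPS bars reach 181.6 to 318 RPKM and the saline bars 129 to 176 RPKM, and in every bar Klf6, Klf13 and Klf3 hold most of the height.

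The summed RPKM of the 9 genes was 181.6, 193, 196, 318 and 207 in LPS replicates 1 to 5, against 176, 153, 132, 130.1 and 129 in saline replicates 1 to 5. Every LPS mouse lay above every saline mouse, with LPS replicate 1 and saline replicate 1 nearly level. Klf6 held 38.3% ± 4.38 of the sum in LPS mice and 34.6% ± 1.73 in saline mice. Klf13 held 28.6% ± 7.42 in LPS mice and 22.9% ± 2.88 in saline mice, and Klf3 held 13.1% ± 4.07 in LPS mice and 22.1% ± 2.68 in saline mice. Klf3 shares did not overlap between the groups, at 6.17% to 16.9% in LPS mice and 19.0% to 25.1% in saline mice. A share also depends on the other genes in the sum. Klf3 RPKM itself overlapped, at 19.6 to 32.7 in LPS mice and 30.1 to 33.45 in saline mice.

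Between LPS and saline mice, 3 of the 9 genes rose (Klf6, Klf10 and Klf13), 1 fell (Klf12), and 5 were not called (Klf2, Klf3, Klf4, Klf7 and Klf11). The call was an adjusted p under 0.05 in edgeR's quasi-likelihood test across all 13793 genes tested. Of all those genes 45% were called, 22.4% higher and 22.5% lower, so that 4 of 9 is a share near the background. Among the 9, only Klf10 had groups that did not overlap, as 29.8% of all genes did. The median log2 fold change of the 9 genes was 0.53, against 0.0014 over all genes, and the median of its absolute size was 0.64, against 0.56. On deposited RPKM, limma called 3 of 8 tested members higher (Klf6, Klf10 and Klf13) and 1 lower (Klf12), where 51% of all genes were called, 28.2% higher and 22.7% lower. Klf11 was below the RPKM minimum for that test. In RNA of a sorted population, fewer cells that express a gene and less RNA per cell cannot be told apart.

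**Figure D2:**
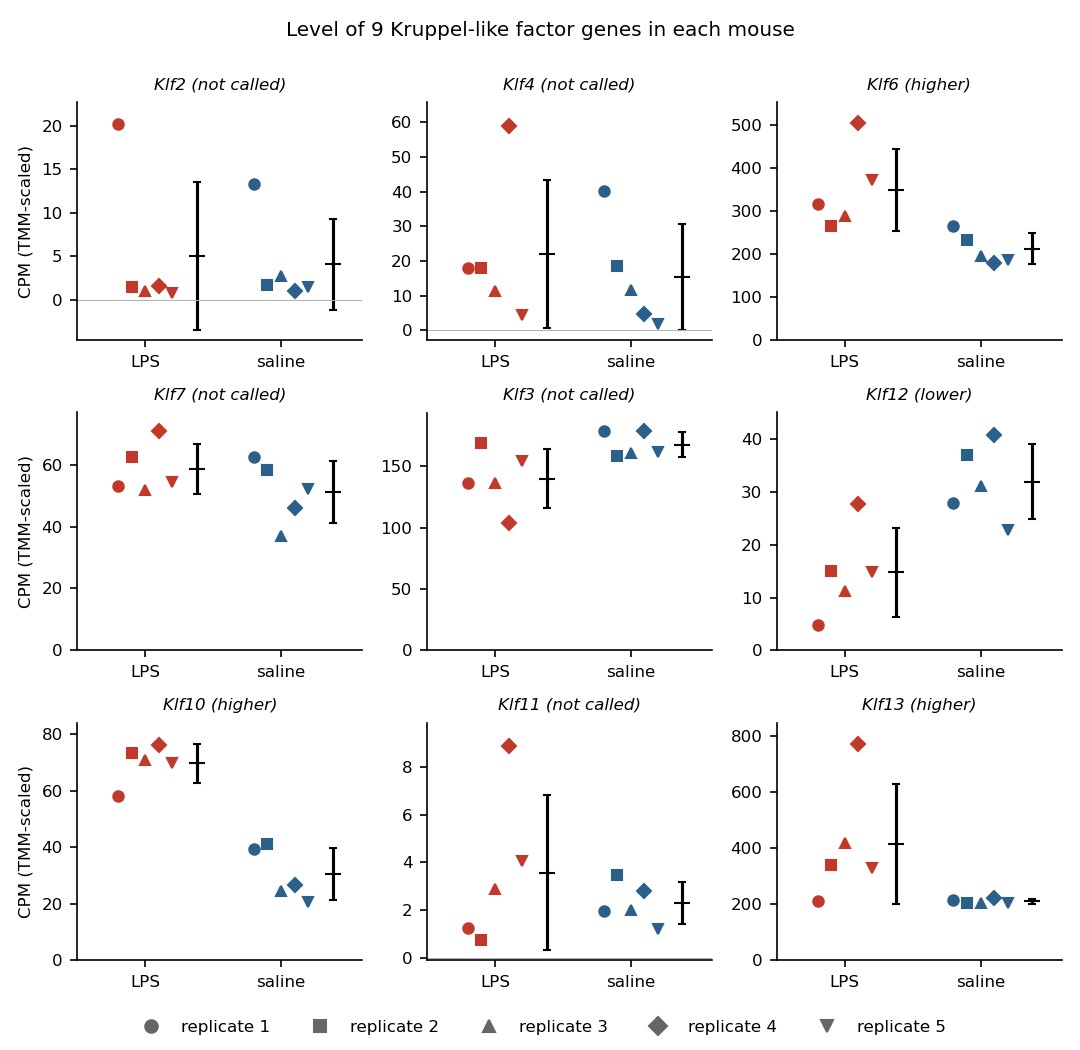
CPM of each of the 9 genes in each mouse on linear axes, LPS left (red) and saline right (blue); symbols give the replicate, bars the mean ± SD of 5 mice, and the title the call by edgeR. The groups stand clear of each other in Klf10, where the LPS mice lie between 58.1 and 76.3 CPM and the saline mice between 20.7 and 41.2 CPM, while single mice set the mean in Klf2, Klf4 and Klf11.

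Of the activating branch, Klf6 rose, and Klf2, Klf4 and Klf7 were not called. Klf6 (Entrez gene 23849, chr13:5861489-5870393), which in macrophages is known to cooperate with NF-kB, had 316, 266, 289, 506 and 374 CPM in LPS mice, against 267, 234, 196, 181 and 188 CPM in saline mice. The lowest LPS mouse lay just under the highest saline mouse, and the other LPS mice lay above all saline mice. The difference was 1.64-fold (log2 fold change 0.72 ± 0.20 SE, edgeR adjusted p = 0.00587). Without LPS replicate 4 it was 0.55 on the log2 scale (edgeR adjusted p = 0.00778).

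Klf2 (Entrez gene 16598, chr8:72319062-72321654), which holds endothelial and T cells in a resting state, was carried by 1 mouse in each group. It had 20.2, 1.46, 0.932, 1.58 and 0.783 CPM in LPS mice, against 13.4, 1.70, 2.67, 0.998 and 1.495 CPM in saline mice. In raw counts this was 242 in LPS replicate 1 and 10 to 25 in the other LPS mice, against 203 in saline replicate 1 and 16 to 33 in the other saline mice. The edgeR log2 fold change of 0.29 was not called (edgeR adjusted p = 0.810). Over the same 10 mice the difference of mean log2 CPM had the other sign, at -0.24 ± 1.02 SE. Without LPS replicate 1 the sign of the edgeR value turned, to -1.75 (edgeR adjusted p = 0.0588). Without saline replicate 1 that value was 1.53 (edgeR adjusted p = 0.182), and without both replicates numbered 1 it was -0.51 (edgeR adjusted p = 0.391).

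Klf4 (Entrez gene 16600, chr4:55527137-55532475), a pluripotency factor that also drives monocyte differentiation, had 17.9, 17.9, 11.3, 59.0 and 4.31 CPM in LPS mice, against 40.0, 18.5, 11.7, 4.62 and 1.71 CPM in saline mice. Mice within a group differed far more than the groups did, 13.7-fold between the highest and lowest LPS mouse and 23.4-fold between saline mice. The log2 fold change of 0.53 ± 0.98 SE was not called (edgeR adjusted p = 0.551), and without LPS replicate 4 it was -0.25 (adjusted p = 0.763). Without saline replicate 1, the highest saline mouse, it was 1.29 (edgeR adjusted p = 0.149). The spread of log2 CPM was wider than that of 97.4% of tested genes in LPS mice and 99.8% in saline mice for Klf4, and wider than that of 99.6% in LPS mice and 98.9% in saline mice for Klf2.

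Saline mice ordered by Klf4 stood in the same order when ordered by Fos or Egr1, immediate early genes that cells switch on within minutes of a stimulus. Fos and Egr1 were picked for this after their values were seen. That order was replicates 1 to 5, which is also ascending mouse number, so a link to mouse number cannot be told apart. Other immediate early genes of the list below stood in it too. In LPS mice the orders differed, with Klf4 highest in replicate 4 (59.0 CPM) and Fos and Egr1 highest in replicate 1. Fos had 811, 279, 92.3, 232 and 88.1 CPM in LPS mice, against 799.8, 286, 166, 84.3 and 31.3 CPM in saline mice. Egr1 had 669.6, 271, 74.1, 242 and 48.5 CPM in LPS mice, against 782, 332, 244, 131 and 28.7 CPM in saline mice. The mouse with the most Klf2 in each group was also the mouse with the most Fos and Egr1. Over a list of 25 immediate early and dissociation-linked genes, the summed level was 3318 to 8777 CPM in LPS mice and 1934 to 7394 CPM in saline mice. The same mice, LPS replicate 1 (8777 CPM) and saline replicate 1 (7394 CPM), were at the top. Of 24 tested genes of the list 8 rose and none fell, with a median log2 fold change of 0.60, and without LPS replicate 1 there were 6 higher and 3 lower. Among all tested genes 22.4% rose and 22.5% fell with all 10 mice. Socs3, a feedback inhibitor of cytokine signalling, averaged 139 ± 13.9 CPM in LPS mice and 17.1 ± 8.73 CPM in saline mice, and Nfkbia, the inhibitor of NF-kB, 415 ± 104 CPM in LPS mice and 80.4 ± 22.3 CPM in saline mice (edgeR adjusted p = 1.02e-06 and 1.50e-06). Ier3 rose 10.3-fold and Fosl2 3.11-fold (edgeR adjusted p = 1.14e-05 and 0.000967). The part of dissociation in the levels of Klf2 and Klf4 was not tested.

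**Figure D3:**
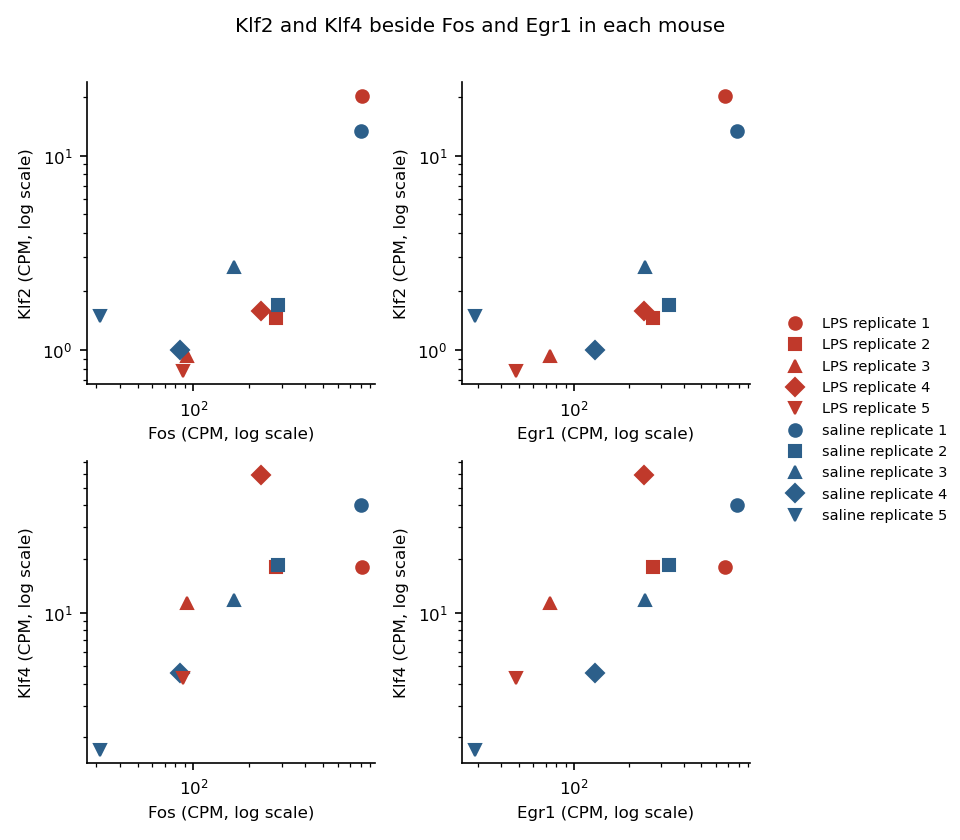
Each point is 1 mouse, LPS in red and saline in blue with the symbol giving the replicate; Fos or Egr1 is on the horizontal axis and Klf2 or Klf4 on the vertical axis, all in CPM on log scales. LPS replicate 1 and saline replicate 1 stand alone at the upper right for Klf2, at 20.2 and 13.4 CPM, and LPS replicate 4 stands highest for Klf4, at 59.0 CPM.

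Within each library, log2 Klf2 minus log2 Klf4 averaged -2.81 ± 1.96 in LPS mice and -1.84 ± 1.13 in saline mice (SD, n = 5 each), a difference of -0.97 (exact two-sided permutation p = 0.389, where 0.00794 is the smallest possible). For log2 Klf6 minus log2 Klf2 the means were 7.24 ± 1.90 in LPS mice and 6.31 ± 1.21 in saline mice, a difference of 0.93 (exact permutation p = 0.373, and 0.389 for each when adjusted over both). Neither difference was larger than the spread between mice. Single mice moved both values in either direction. Without LPS replicate 1 the first was -1.71 (exact permutation p = 0.0317), and without LPS replicate 4 it was -0.39 (exact permutation p = 0.730). Without LPS replicate 1 the second was 1.75 (exact permutation p = 0.0159), and without saline replicate 1 it was 0.43 (exact permutation p = 0.714).

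Klf7 (Entrez gene 93691, chr1:64029448-64122345), known from the growth of axons, had 53.1, 62.5, 51.8, 70.8 and 54.5 CPM in LPS mice, against 62.5, 58.1, 37.0, 45.9 and 52.2 CPM in saline mice. The ranges overlapped and the log2 fold change of 0.20 ± 0.16 SE was not called (edgeR adjusted p = 0.321). Its exons share 3196 bases with Gm26649, annotated on the opposite strand, and no source used here says whether counting used strand.

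Of the CtBP-binding repressors, Klf12 fell and Klf3 was not called. Klf12 (Entrez gene 16597, chr14:99866181-100285891), first known as a repressor of the AP-2 alpha gene, had 4.77, 15.1, 11.3, 27.7 and 15.0 CPM in LPS mice, against 28.0, 37.1, 31.2, 40.7 and 22.9 CPM in saline mice. Only LPS replicate 4 reached into the range of the saline mice. The level was 2.15-fold lower (log2 fold change -1.11 ± 0.43 SE, edgeR adjusted p = 0.0138), and without LPS replicate 4 the log2 fold change was -1.46 (edgeR adjusted p = 0.000582). With each library's trend over gene length removed, the call ended (log2 fold change -0.46, edgeR adjusted p = 0.188); of 13199 genes with a length 38.5% were then called, and Klf6, Klf10 and Klf13 were among them.

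Klf3 (Entrez gene 16599, chr5:64803521-64832901), a repressor active in blood and fat cells, had 136, 169, 136, 104 and 154 CPM in LPS mice, against 179, 158, 160.4, 179 and 161 CPM in saline mice. LPS replicate 2 lay inside the saline range and the other LPS mice below it. Saline mice differed by no more than 1.13-fold. The log2 fold change of -0.26 ± 0.12 SE was not called (edgeR adjusted p = 0.138), and with the length trend removed it was 0.10 (adjusted p = 0.640). Klf3 shares 404 exon bases with Gm20033 on the opposite strand.

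Of the Sin3A-binding branch, Klf10 and Klf13 rose and Klf11 was not called. Klf10 (Entrez gene 21847, chr15:38291464-38300711), an early response gene of TGF-beta, had 58.1, 73.2, 70.8, 76.3 and 69.7 CPM in LPS mice, against 39.5, 41.2, 24.4, 26.8 and 20.7 CPM in saline mice. All LPS mice lay above all saline mice. The difference was 2.28-fold (log2 fold change 1.19 ± 0.21 SE, edgeR adjusted p = 0.000183). It was between 1.07 and 1.33 on the log2 scale whichever mouse was left out.

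Klf13 (Entrez gene 50794, chr7:63886351-63938915), which switches on the chemokine gene Ccl5 in T lymphocytes, had 209.9, 339, 418, 771 and 331 CPM in LPS mice, against 215, 206, 203, 222 and 204 CPM in saline mice. In saline mice its level was among the most even of all genes: only 0.399% of tested genes had a smaller spread of log2 CPM, against 81.2% in LPS mice. LPS replicate 1 stayed within the saline range while the other LPS mice lay above it. The difference was 1.97-fold (log2 fold change 0.98 ± 0.31 SE, edgeR adjusted p = 0.00706), and without LPS replicate 4 it was 0.63 on the log2 scale (edgeR adjusted p = 0.00531).

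Klf11 (Entrez gene 194655, chr12:24651371-24662782), the closest relative of Klf10, had few counts, with 10 to 140 in LPS mice and 17 to 45 in saline mice. It had 1.26, 0.768, 2.87, 8.87 and 4.07 CPM in LPS mice, against 1.98, 3.48, 2.02, 2.81 and 1.21 CPM in saline mice. The LPS mice lay on both sides of the saline mice. The edgeR log2 fold change of 0.64 was not called (edgeR adjusted p = 0.342), and without LPS replicate 4 it was -0.037 (adjusted p = 0.955). Over all 10 mice the difference of mean log2 CPM was smaller, at 0.23 ± 0.63 SE.

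**Figure D4:**
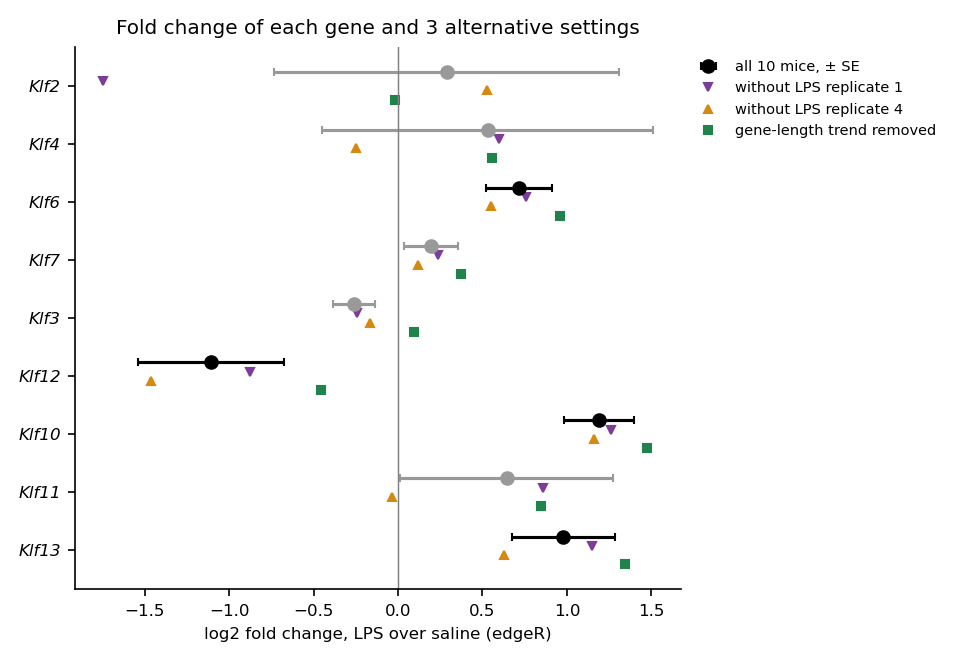
Log2 fold change of each gene, LPS over saline, by edgeR. Circles give the value over 10 mice (black where called, grey where not), with bars of ± SE from the spread of log2 CPM. Coloured symbols give the fold change without LPS replicate 1, without LPS replicate 4 and with each library's gene-length trend removed. Klf6, Klf10 and Klf13 stay right of 0 in all 4 settings, Klf12 stays left of 0, and Klf2, Klf3, Klf4 and Klf11 each cross 0 in at least 1 of them.

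Of the 8 other Klf genes, 2 were tested. Klf9, a close relative of Klf13 that glucocorticoid and thyroid hormone induce, had 0.0837, 4.38, 7.92, 53.7 and 18.1 CPM in LPS mice, against 0.856, 1.10, 1.29, 0.749 and 0.285 CPM in saline mice. LPS replicate 1, with 1 count, was below all saline mice and the other LPS mice were above them. It rose 19.8-fold (log2 fold change 4.31 ± 1.36 SE, edgeR adjusted p = 0.00212), 8.85-fold without LPS replicate 4, and was not called by limma-voom (log2 fold change 2.90, adjusted p = 0.210). Klf16, also of the Sin3A-binding branch, averaged 3.72 ± 1.12 CPM in LPS mice and 6.00 ± 1.56 CPM in saline mice (log2 fold change -0.69 ± 0.27 SE, edgeR adjusted p = 0.0607). It was called lower in 4 of 21 alternatives, namely with library size only, with the length trend removed, without LPS replicate 2 and without saline replicate 5, and its adjusted p was 0.0411 to 0.146 over the 21. Klf1, Klf5, Klf15 and Klf17 had at most 8 counts in any library, and Klf8 and Klf14 had none in any.

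Mouse numbers in the labels fall into 3 ranges, for which the labels give no meaning, and the called members had the same sign in each. In the lowest range (2 LPS and 2 saline mice), the middle range (1 LPS and 2 saline) and the highest range (2 LPS and 1 saline), the mean log2 CPM of LPS minus saline mice was 0.22, 0.62 and 1.21 for Klf6. It was 0.69, 1.46 and 1.81 for Klf10, and 0.35, 0.98 and 1.31 for Klf13. For Klf12 it was -1.90, -1.64 and -0.17. No range was tested by itself. With the range as a term in the fit over all 10 mice, the log2 fold change was 0.61 for Klf6, 1.23 for Klf10, 0.84 for Klf13 and -1.27 for Klf12, and all 4 were called (edgeR adjusted p = 0.0181, 0.000322, 0.0184 and 0.0157).

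The upstream kinases and factors of Klf2 and Klf4 fell in part. Of 11 tested genes of the ERK5 and MEF2 list 5 fell (Map3k2, Mef2a, Mef2c, Mef2d and Hdac9) and none rose, with a median log2 fold change of -0.43. Over all tested genes 45% were called, 22.5% lower and 22.4% higher. Mef2c, a factor of microglial identity, had 757, 723, 583, 425 and 467 CPM in LPS mice, against 1525, 1556, 1379, 1352 and 1276 CPM in saline mice. The groups did not overlap, and Mef2c was 2.40-fold lower (log2 fold change -1.26 ± 0.17 SE, edgeR adjusted p = 5.37e-05). Mef2a averaged 256 ± 67.6 CPM in LPS mice and 439 ± 31.5 CPM in saline mice (edgeR adjusted p = 0.00161). Mef2d averaged 40.5 ± 9.50 CPM in LPS mice and 68.9 ± 12.3 CPM in saline mice (edgeR adjusted p = 0.00244). Hdac9, a deacetylase that binds MEF2, averaged 11.1 ± 3.43 CPM in LPS mice and 23.1 ± 5.84 CPM in saline mice (edgeR adjusted p = 0.00307). Mapk7, the gene of ERK5, was not called at 9.996 ± 1.95 CPM in LPS mice and 13.5 ± 1.14 CPM in saline mice (edgeR adjusted p = 0.0655), nor was its kinase Map2k5 (adjusted p = 0.826). With the length trend removed 3 fell (Mef2a, Mef2c and Mef2d) and 1, Hdac4, rose.

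**Figure D5:**
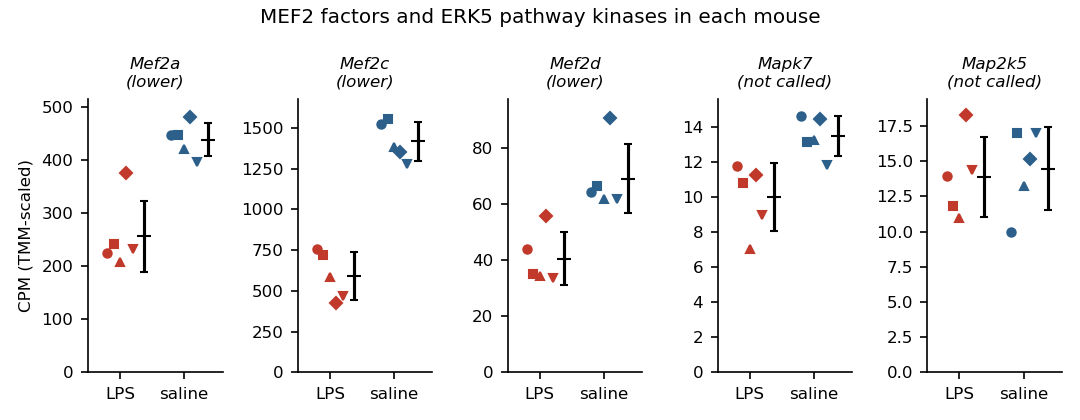
CPM of the 3 MEF2 genes and of the ERK5 pathway kinases Mapk7 and Map2k5 in each mouse, LPS left (red) and saline right (blue), on linear axes that start at 0; bars give the mean ± SD of 5 mice. For Mef2a, Mef2c and Mef2d all LPS mice lie below all saline mice, with group means of 256 and 439, 591 and 1418, and 40.5 and 68.9 CPM in LPS and saline mice.

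Among competitors and partners of Kruppel-like factors, calls were found in both directions, where 22.4% of all tested genes rose and 22.5% fell. Of 4 tested SP family genes 2 fell and none rose (median log2 fold change -0.23): Sp4 averaged 9.06 ± 2.78 CPM in LPS mice and 21.6 ± 3.53 CPM in saline mice (edgeR adjusted p = 0.000577), and Sp1 38.3 ± 4.14 CPM in LPS mice and 56.9 ± 9.83 CPM in saline mice (adjusted p = 0.00590). Of 11 co-repressor genes 2 rose and 2 fell (median 0.021). Sap30, a subunit of the Sin3 complex, had 12.6, 4.46, 7.84, 8.87 and 9.39 CPM in LPS mice, against 3.62, 1.70, 4.44, 2.50 and 1.85 CPM in saline mice. All LPS mice lay above all saline mice, if narrowly, and the difference was 3.05-fold (edgeR adjusted p = 0.00136). Ctbp1 rose 1.47-fold, and Ctbp2 was 1.28-fold and Sin3a 1.32-fold lower (edgeR adjusted p = 0.0417, 0.0209 and 0.0294). Those 3 calls each ended when certain mice were left out: LPS replicate 1, 2 or 5 or saline replicate 1, 2, 3 or 4 for Ctbp1, LPS replicate 1 or 3 or saline replicate 3 for Ctbp2, and LPS replicate 1, 3 or 5 or saline replicate 2 or 4 for Sin3a.

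Of 4 co-activator genes 2 fell (median -0.40), both acetyltransferases, where 22.5% of all tested genes fell. Crebbp averaged 276 ± 54.9 CPM in LPS mice and 436 ± 19.3 CPM in saline mice (edgeR adjusted p = 0.00263), and Ep300 26.2 ± 6.85 CPM in LPS mice and 42.7 ± 4.25 CPM in saline mice (adjusted p = 0.00499). Of 6 genes of ubiquitin ligases that mark Kruppel-like factors for degradation, 2 fell (median -0.24). Smurf1 averaged 19.5 ± 4.66 CPM in LPS mice and 32.1 ± 4.70 CPM in saline mice (edgeR adjusted p = 0.00521), and Wwp1 9.11 ± 2.14 CPM in LPS mice and 15.0 ± 2.97 CPM in saline mice (adjusted p = 0.0141). With the length trend removed, the calls of Sp1, Hdac9, Map3k2, Ctbp1, Ctbp2, Sin3a, Crebbp, Ep300, Smurf1 and Wwp1 ended, while Sp4 and Sap30 were still called. In the same setting Sp2, Ncor1, Sin3b and Fbxw7 were called higher and Hdac1 lower.

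Genes known to be activated by Klf2 or Klf4 in other cells did not move in 1 direction. Of the 8 listed 4 passed the filter, and of these 3 rose and 1 fell, against 22.4% and 22.5% of all tested genes. S1pr1, the sphingosine phosphate receptor through which Klf2 lets T cells leave lymphoid tissue, had 18.7, 18.1, 21.6, 28.1 and 21.3 CPM in LPS mice, against 119, 141, 140.4, 136 and 94.5 CPM in saline mice. No LPS mouse came near the saline mice, and the level was 5.85-fold lower (log2 fold change -2.55 ± 0.16 SE, edgeR adjusted p = 8.79e-08). Cdkn1a, a cell cycle inhibitor, averaged 42.0 ± 32.7 CPM in LPS mice and 5.34 ± 1.80 CPM in saline mice (edgeR adjusted p = 0.000102). Hmox1, heme oxygenase, averaged 137 ± 16.2 CPM in LPS mice and 35.2 ± 18.7 CPM in saline mice (edgeR adjusted p = 0.000450). Itgb7, an integrin chain, averaged 4.98 ± 1.87 CPM in LPS mice and 0.955 ± 0.733 CPM in saline mice (edgeR adjusted p = 0.00280).

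Genes that Klf2 is known to repress in endothelium or myeloid cells, several of them also NF-kB targets, rose. Of the 9 listed 6 passed the filter, and all 6 were called higher, with a median log2 fold change of 2.21. Among all tested genes 22.4% were called higher. Il1b, a fever-inducing cytokine, had 172, 377, 133, 12.3 and 81.6 CPM in LPS mice, against 7.11, 7.13, 5.82, 3.24 and 3.49 CPM in saline mice. The LPS mouse with the least, replicate 4, still lay above the saline mice. The difference was 29.0-fold (edgeR adjusted p = 5.47e-05), and 18.7-fold without LPS replicate 2. Tnf averaged 149 ± 93.5 CPM in LPS mice and 11.6 ± 6.90 CPM in saline mice (edgeR adjusted p = 3.35e-05). F3, the tissue factor of coagulation, averaged 5.85 ± 1.28 CPM in LPS mice and 1.36 ± 0.421 CPM in saline mice, and Vcam1, an adhesion molecule, 48.1 ± 12.1 CPM in LPS mice and 14.8 ± 6.11 CPM in saline mice (edgeR adjusted p = 9.39e-05 and 0.000125). The number called was 4 without saline replicate 4, where the call of the chemokine gene Ccl2 ended, as it also did without LPS replicate 1.

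Around the TGF-beta pathway, 3 of 10 tested genes linked to Klf10 and Klf11 fell and 1 rose (median log2 fold change -0.32). Over all tested genes 22.5% fell and 22.4% rose. Tgfbr1, the type 1 receptor, averaged 478 ± 63.8 CPM in LPS mice and 1339 ± 223 CPM in saline mice (log2 fold change -1.49 ± 0.13 SE, edgeR adjusted p = 4.03e-06). Tgif1, a repressor of the pathway, averaged 157 ± 33.1 CPM in LPS mice and 91.9 ± 7.26 CPM in saline mice (edgeR adjusted p = 0.00107). Smad3 averaged 81.7 ± 28.1 CPM in LPS mice and 136 ± 12.8 CPM in saline mice, and Skil 277 ± 66.1 CPM in LPS mice and 430.2 ± 75.8 CPM in saline mice (edgeR adjusted p = 0.00927 and 0.0112). Tgfb1, Tgfbr2, Smad2 and Smad4 were among the genes not called. The part of TGF-beta in the level of Klf10 was not tested. With the length trend removed Tgfbr1 and Tgfb1 fell and Tgif1 rose.

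Markers of other cells moved beside these genes, where 22.4% of all tested genes rose and 22.5% fell. Endothelial cells are rich in Klf2 and Klf4, and the summed level of 10 of their markers was 6.50 to 12.3 CPM in LPS mice and 54.1 to 80.4 CPM in saline mice, with the defining marker Cldn5 at 0 in every library. Most of that sum was Pecam1, which macrophages also express, at 7.05 ± 2.38 CPM in LPS mice and 54.1 ± 10.3 CPM in saline mice; 3 of 3 tested members fell. Neutrophil markers, of which none of 7 passed the filter, summed to 0.538 to 24.4 CPM in LPS mice and 0.0712 to 0.988 CPM in saline mice. The LPS mice with the most were replicate 4 (24.4 CPM) and replicate 5 (17.1 CPM), followed by replicate 3 (2.56 CPM), and S100a8 was at 6.27, 9.08 and 2.02 CPM in these 3 mice. The part of neutrophils in the levels of the 9 genes was not tested. Sums for monocytes were 7.37 to 23.2 CPM in LPS mice and 9.12 to 17.8 CPM in saline mice (of 3 tested genes 1 rose and 1 fell), and for border-associated macrophages 6.72 to 27.9 CPM in LPS mice and 8.91 to 14.2 CPM in saline mice (1 of 2 rose). Astrocyte markers summed to 135 to 342 CPM in LPS mice and 355 to 409 CPM in saline mice, almost all of it Slc1a3, the 1 of 3 tested genes that fell. Sums of the remaining lists overlapped between the groups, with none of their tested genes called: at most 5.48 CPM for pericytes, 125 CPM for oligodendrocytes, 8.81 CPM for neurons, 4.37 CPM for T and NK cells and 143 CPM for B cells in any library.

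For the 3 members with the most RNA, the genes with the most similar pattern over the 10 libraries were sought among 9783 genes. Likeness was the mean absolute difference between log2 CPM profiles, each centred on its own mean, so a smaller value is closer. Values of different members are not comparable, as the SD of log2 CPM was 0.24 for Klf3, 0.47 for Klf6 and 0.64 for Klf13. Klf3 was followed most closely by Gatc (0.052), Tgs1 (0.084) and Taf11 (0.085). Klf6 was followed by Pkib, Nabp1 and Preb (0.14, 0.14 and 0.15), and Klf13 by Afap1l1, Tns1 and Fmnl2 (0.12, 0.15 and 0.17). Fmnl2 had 20.5 ± 0.745 CPM in saline mice and 39.5 ± 27.7 CPM in LPS mice. It was picked for its likeness to Klf13, so a spread like that of Klf13 is not a separate result.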

How the data were processed

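RNA of FACS-isolated microglia was amplified with a SMARTer ultra low kit and made into Ovation ultra low libraries, per the labels' protocols. The authors deposited whole-number counts for each gene. Per the submitters' processing notes featureCounts was used, and GRCm38 and mm10 appear there as builds; no source used here names the aligner, the annotation or a strand setting. The authors also deposited RPKM in 2 tables, of which 100% of checked values lay within 1% of the count scaled by a library factor and a gene factor; the second table served as an alternative. Of 40789 genes 13224 had no count, 1 row without a name was dropped, and 15 names that a spreadsheet had turned into dates were restored from Entrez IDs. The test on counts was the quasi-likelihood F test of edgeR 4.0.16 (R 4.3.3), after TMM scaling and filterByExpr, with Benjamini-Hochberg adjustment and a threshold of 0.05. SE are from the spread of log2 CPM (prior count 2) within both groups, and so belong to the difference of mean log2 CPM. Where they stand beside an edgeR fold change, they are not the error of the edgeR fit. RPKM, after adding 1 and taking log2, went to limma 3.58.1 where a gene's mean reached 1 RPKM (11147 genes). Alternatives were other scalings, filters, DESeq2 1.42.0, limma-voom, mouse number ranges, gene-length trend removal, coding genes and each mouse left out. Differences on that scale understate the change of low genes. The amplified reads carry no molecular identifiers here, so counts are not independent molecules. On simulated data with 13441 genes, edgeR recovered 10.4% of 1.5-fold, 49.3% of 2-fold and 90.9% of 4-fold changes for LPS against saline, with 3.85% of calls false. Only 200 genes were changed there, while 45% of tested genes were called in the data. The adjusted threshold depends on that share, so these rates do not give the power of the actual comparison.

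The members and lists were chosen with earlier results of these data known. All 9 members were named; pathway lists gave called members with values (at most 4, by adjusted p), or the 2 highest where none was called, and marker lists up to the 2 highest. The 3 members with the highest RPKM gave 3 genes each with the most similar profile, among those averaging 5 CPM or more. Fos, Egr1, Klf16, Mapk7, Map2k5 and Cx3cr1 were named after their values were seen. Values of 2 list genes are not reported here.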

Additional observations from a re-analysis of the deposited data

Results flagged for a closer look

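A sample far from the other 4 of its group, with a gap to the next over 0.71 of the range, was looked for in 148 groups of 5 mice. Such a sample was found in 19 groups, and in 3 of the 18 groups of the 9 members. The rule flags about 1 in 20 groups of independent, normally distributed values. CPM of related genes need not be so, and some genes were picked for likeness, so that rate is no background for these counts. Klf2 stood far above the others in LPS replicate 1 (20.2 CPM) and in saline replicate 1 (13.4 CPM), and Klf4 in LPS replicate 4 (59.0 CPM). Among LPS mice the highest values were also far from the rest for Mef2a (375 CPM) and Fos (811 CPM). The same was seen for genes picked for a pattern like Klf6 or Klf13, namely Nabp1 (27.6 CPM), Preb (156 CPM), Afap1l1 (107 CPM) and Fmnl2 (87.6 CPM). In saline mice this held for the highest values of Mef2d (90.7 CPM), Crebbp (469.8 CPM), Smurf1 (40.2 CPM), Tgfbr1 (1734 CPM), Socs3 (32.3 CPM) and Pecam1 (72.0 CPM). It also held for 4 markers with few counts, with S100a8 (0.0849 CPM), Gzma (1.12 CPM) and Nkg7 (0.725 CPM) high and Pdgfrb (0 CPM) low in a single saline mouse.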

How the results depend on the processing

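Klf6, Klf10 and Klf13 were called higher in all 21 alternatives on counts, with log2 fold changes of 0.55 to 0.96, 1.07 to 1.48 and 0.63 to 1.34. Klf12 was called lower in 20, and none of the members was with the gene-length trend removed (0 lower in place of 1). The sign of Klf2 turned with limma-voom (-0.34), mouse number ranges as a term (-0.043), the length trend removed (-0.020), without LPS replicate 1 (-1.75) and without both replicates numbered 1 (-0.51), the last chosen after seeing the data; by RPKM it turned without LPS replicates 2, 3, 4 or 5 or saline replicate 1 (0.05 to 0.37). The sign of Klf3 (0.10) and Ctbp2 (0.026) turned with the length trend removed, and that of Klf4 (-0.25) and Klf11 (-0.037) without LPS replicate 4. Leaving out each mouse gave -1.75 to 1.53 for Klf2 (by RPKM -0.63 to 0.37), -0.25 to 1.29 for Klf4, -0.037 to 0.91 for Klf11, -1.71 to -0.39 for log2 Klf2 minus Klf4 and 0.43 to 1.75 for log2 Klf6 minus Klf2. Without both replicates numbered 1, Klf4 was at 1.36. No scaling moved the median of all genes by more than 0.086 on the log2 scale. No paired analysis was possible because the groups share no mouse number and replicate numbers follow accession order. Depth limits Klf2 and Klf11, with as few as 10 counts in a library. The p-values set each difference between groups against the variation among these 10 mice, which edgeR and limma moderate over all genes tested.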
